A study of Mus musculus with 2 samples.

Results

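Cox17 and 9 other assembly factors of cytochrome c oxidase were examined by RNA-seq in RAW264.7, a mouse macrophage line. They are 10 of the 52550 genes counted. Cox17 was chosen by its low ratio between these same libraries, so its ratio is given as a description. The other 9 (Cox11, Cox19, Sco1, Sco2, Surf1, Cox10, Cox15, Coa3 and Coa5) were taken for their roles in the same pathway, and all 10 were found by matching Ensembl gene identifiers to mm10 gene symbols.

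The study sequenced 1 library of cells from 3D culture, with 16652503 counted reads, and 1 library of cells from 2D culture, with 14371084. RAW264.7 is a macrophage-like line established from a mouse tumour induced by Abelson leukaemia virus. Both libraries came from untreated, purified cells of that line, whose RNA was made into stranded libraries of polyadenylated RNA. The sources used here do not say how the 3D culture was made, how long it lasted or how many cells it held. With 1 library per culture method there is no replicate check, so no difference below can be set against the spread between cultures. In a bulk library, fewer cells that carry a transcript and less of it per cell cannot be told apart.

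Cytochrome c oxidase, complex IV of the respiratory chain, passes electrons from cytochrome c to oxygen through copper and heme A centres held by subunits that the mitochondrial genome encodes. Those centres are loaded by dedicated assembly factors that are not part of the finished enzyme. COX17 is a small copper carrier of the intermembrane space that hands copper to SCO1 and SCO2 for the site in MT-CO2 and to COX11 for the site in MT-CO1. COX10 and COX15 convert heme B to heme A, and SURF1, COA3 and COA5 act in assembly of the enzyme, largely around MT-CO1.

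The coding bases of Cox17 are shared with another annotated gene, and whether this affects its counts was not tested. The Cox17 coding sequence is shown beside that of Cox19, a related small protein of the intermembrane space. Capitals mark the cysteine codons, which in both proteins include those of the paired CX9C motifs. The Cox17 coding part (transcript Cox17-201) lies within chr16:38347101-38349325 on the plus strand, and that of Cox19 (Cox19-201) within chr5:139338291-139345153 on the minus strand. Both are from the GENCODE M21 transcripts of mm10, and introns are left out.
Cox17: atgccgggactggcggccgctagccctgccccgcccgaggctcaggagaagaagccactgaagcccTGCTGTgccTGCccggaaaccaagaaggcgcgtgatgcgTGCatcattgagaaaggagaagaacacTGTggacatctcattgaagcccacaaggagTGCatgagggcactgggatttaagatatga
Cox19: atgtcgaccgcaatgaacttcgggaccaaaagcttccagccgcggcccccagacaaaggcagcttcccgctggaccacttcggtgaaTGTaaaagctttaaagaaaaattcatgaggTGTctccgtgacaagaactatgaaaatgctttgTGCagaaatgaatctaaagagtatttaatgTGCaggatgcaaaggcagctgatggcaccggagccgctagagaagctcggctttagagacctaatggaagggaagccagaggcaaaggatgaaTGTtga
The Cox17 coding part has 192 bases and 6 cysteine codons in 63 codons. All 192 bases are also annotated as coding sequence of a second gene on the same strand, Gm21987. The Cox19 coding part has 279 bases and 5 cysteine codons in 92 codons, and none of its bases are shared with a same-strand gene.

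Cox17 (ENSMUSG00000046516, chr16:38346991-38352763) had 13 counts in 3D culture and 294 in 2D culture. Scaled by TMM, an estimate of library size that trims extreme genes, these were 0.961 counts per 1000000 (CPM) in 3D culture and 16.6 CPM in 2D culture. The gene was 17.3-fold lower in 3D culture (95% counting interval 9.96 to 32.9), a log2 ratio of -4.11. Counting intervals here are exact, conditional on the sum of the counts, and cover counting error only, not the spread between cultures. The labels name no molecular identifiers, so PCR copies of a molecule may be counted repeatedly and the intervals may be too narrow. Cox17 ranked 75 from the lowest of the 11673 measured genes, which are those with a mean of at least 1 CPM. That rank depends on setting counts of 0 to 3, which raises the ratio of genes with 0 counts in 3D culture. Cox17 was the member with the lowest value in 3D culture among those with any count. It made up 0.28% of the 4648 counts of the 10 members in 3D culture and 5.41% of their 5432 counts in 2D culture. Under total-count scaling the gene was 26.2-fold lower, and after adjustment for GC content, exon length and expression it was 9.56-fold lower.

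Of the 9 measured members, 2 were 2-fold or more higher in 3D culture (Surf1 and Coa3), 1 was 2-fold or more lower (Cox17) and 6 lay between. Of all 11673 measured genes, 18.7% were 2-fold or more higher and 20.8% 2-fold or more lower. The 1 lower member is the gene chosen by that ratio, and with so few members their counts are not set apart from those shares. The median log2 ratio of the 9 members was 0.39, and 0.49 over the 8 without Cox17, against 0.052 over all measured genes. The ratios of those 8 ran from 0.801 to 2.10.

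**Figure D1:**
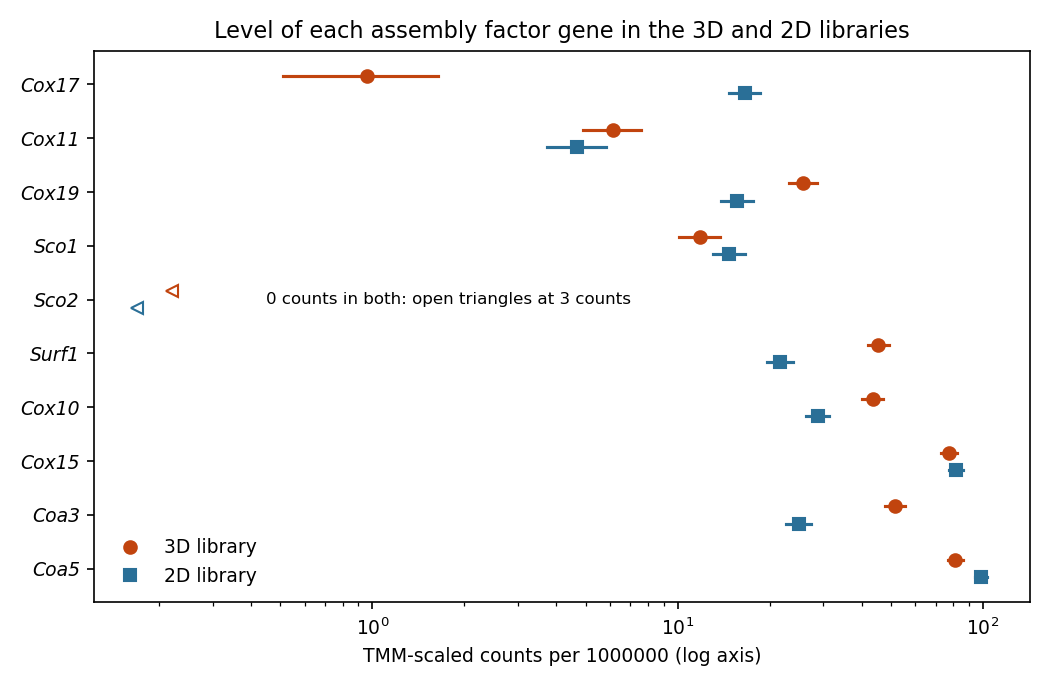
TMM-scaled counts per 1000000 of the 10 assembly factors (log axis, 1 point per library, bars are 95% counting intervals, open triangles mark 3 counts) in the 3D and the 2D library; there are no replicates. Cox17 had 0.961 CPM in 3D culture and 16.6 CPM in 2D culture, and Sco2 had no count in either.

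The scaling sets the level against which these ratios are read. Total counts moved every log2 ratio by -0.60, and scaling to 20 reference genes moved it by -0.56, which put the median of all genes at -0.55 and -0.51. At least 2-fold higher genes were then 5.77% of all genes under total counts and 6.37% under reference genes, and 2-fold or more lower genes 35.9% and 34.7%. No member but Cox17 passed 2-fold in either direction under these scalings, and the median log2 ratio of the members turned to -0.21 under total counts and -0.17 under reference genes. Of 9 measured members, 5 lay above the all-gene median under any of these scalings, since each moves all genes alike. Adjustment for GC content, exon length and expression left 10.5% of 11666 genes 2-fold or more higher and 9.75% 2-fold or more lower. Cox17 was then the 1 member past 2-fold, and the median of the members was -0.030. GC content by itself took up 31.2% of the spread (variance) in log2 ratios among measured genes.

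The measured copper factors other than Cox17 lay within 2-fold under TMM. Cox11 (ENSMUSG00000020544, chr11:90638173-90644931), which delivers copper to MT-CO1, had 83 counts in 3D culture and 83 in 2D culture. Scaled, these were 6.13 CPM in 3D culture and 4.69 CPM in 2D culture, a ratio of 1.31 (0.952 to 1.79). The interval includes 1, and total-count scaling gave 0.863.

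Cox19 (ENSMUSG00000045438, chr5:139336189-139351418), which works with COX11 in copper transfer, had 348 counts in 3D culture and 277 in 2D culture. Its level was 25.7 CPM in 3D culture and 15.7 CPM in 2D culture, a ratio of 1.64 (1.40 to 1.93). The ratio was above 1 under each scaling and 1.504 after adjustment, with 1.08 under total counts as the lowest value.

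Sco1 (ENSMUSG00000069844, chr11:67052670-67067070), a membrane-anchored copper chaperone of MT-CO2, had 160 counts in 3D culture and 261 in 2D culture. It stood at 11.8 CPM in 3D culture and 14.8 CPM in 2D culture, a ratio of 0.801 (0.654 to 0.979). The direction depended on the processing, with 0.529 under total counts and 1.66 after adjustment for GC content, exon length and expression.

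Sco2 (ENSMUSG00000091780, chr15:89371637-89373846), the second chaperone of that site, had 0 counts in 3D culture and 0 in 2D culture. A count of 0 allows up to 3 counts, which is 0.222 CPM in 3D culture and 0.170 CPM in 2D culture. Of its 1253 annotated exon bases, 1150 (91.8%) are shared with other genes, 856 of them with Tymp on the same strand and 829 with Ncaph2 on the opposite strand. The 103 bases left hold none of its reference transcript (the principal coding transcript of the annotation), so a count of 0 here is no sign that Sco2 was silent. Tymp, thymidine phosphorylase, had 64 counts in 3D culture and 28 in 2D culture (ratio 2.99), and Ncaph2, a condensin II subunit, had 4718 in 3D culture and 2224 in 2D culture (ratio 2.77).

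The 2 enzymes of heme A synthesis had different ratios. Cox10 (ENSMUSG00000042148, chr11:63962627-64079468), heme O synthase, had 589 counts in 3D culture and 508 in 2D culture. Scaled, it had 43.5 CPM in 3D culture and 28.7 CPM in 2D culture, a ratio of 1.52 (1.34 to 1.71). Cox15 (ENSMUSG00000040018, chr19:43733254-43753000), which completes heme A, had 1046 counts in 3D culture and 1445 in 2D culture. Its levels were 77.3 CPM in 3D culture and 81.7 CPM in 2D culture, a ratio of 0.946 (0.873 to 1.03). The counting intervals of these 2 ratios did not overlap under TMM, while after adjustment for GC content, exon length and expression the ratios were 0.926 for Cox10 and 0.935 for Cox15. Under total counts Cox10 stood at 1.001 and Cox15 at 0.625.

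Surf1 and Coa3 had the highest ratios of the 10. Surf1 (ENSMUSG00000015790, chr2:26913381-26916530), an inner-membrane protein whose human counterpart is mutated in Leigh syndrome, had 615 counts in 3D culture and 383 in 2D culture. Its level was 45.4 CPM in 3D culture and 21.7 CPM in 2D culture, a ratio of 2.10 (1.84 to 2.39). Coa3 (ENSMUSG00000017188, chr11:101277968-101279114), which binds newly made MT-CO1, had 695 counts in 3D culture and 440 in 2D culture. It stood at 51.4 CPM in 3D culture and 24.9 CPM in 2D culture, a ratio of 2.06 (1.83 to 2.33). The lower bounds of both lay under 2. Under total counts the ratios were 1.39 for Surf1 and 1.36 for Coa3. After adjustment they were 1.23 for Surf1 and 0.979 for Coa3, so that Coa3 lay near the value fitted for genes of like features.

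Coa5 (ENSMUSG00000026112, chr1:37417084-37430103), a small assembly factor with a twin cysteine motif, had the largest counts of the 10, 1099 in 3D culture and 1741 in 2D culture. Scaled, these were 81.2 CPM in 3D culture and 98.4 CPM in 2D culture, a ratio of 0.825 (0.764 to 0.890). The ratio was 0.545 under total counts and 0.977 after adjustment, below 1 each time. Ordered by ratio, neighbours from Surf1 to Coa3, Cox19, Cox10 and Cox11 had overlapping counting intervals, as did Cox11 with Cox15, Cox15 with Coa5, and Coa5 with Sco1. Adjacent intervals thus overlapped throughout the 8 measured members other than Cox17.

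**Figure D2:**
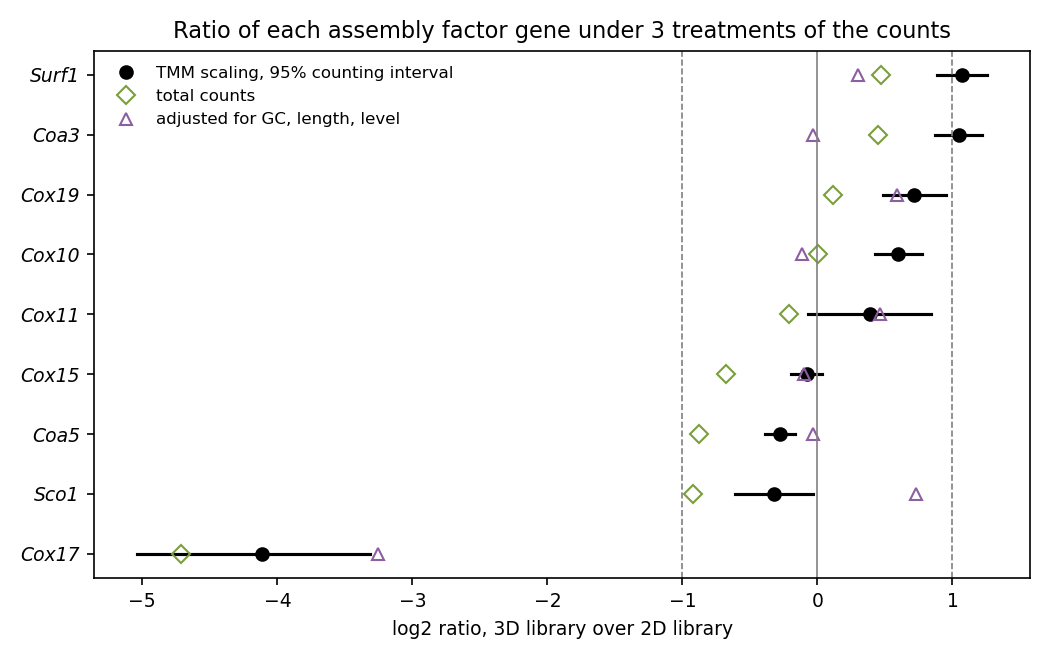
Ratio of the 3D over the 2D library (log2 scale) for the measured assembly factors under TMM scaling with 95% counting intervals, with the values under total counts and after adjustment for GC content, exon length and expression; dashed lines mark 2-fold. Cox17 lies at -4.11, and the other 8 lie between -0.32 and 1.07 under TMM.

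Levels can be compared between the members only per length. Per kilobase of exon bases not shared with another gene, Coa3 was the most abundant in each library, with 63.9 CPM in 3D culture and 30.9 CPM in 2D culture. Cox17 was the least abundant of the 9, with 0.174 CPM per kilobase in 3D culture (counting interval 0.0927 to 0.298) and 3.01 in 2D culture (2.68 to 3.38). In the 3D library Surf1 followed Coa3 with 28.1 CPM per kilobase, then Cox15 with 17.3, Coa5 with 15.6, Cox10 with 14.6, Cox11 with 8.35, Cox19 with 6.86 and Sco1 with 3.01. Of those neighbours, Cox15 with Coa5, Coa5 with Cox10, and Cox11 with Cox19 had overlapping counting intervals. In the 2D library Coa5 followed Coa3 with 18.9 CPM per kilobase, then Cox15 with 18.3, Surf1 with 13.4, Cox10 with 9.61, Cox11 with 6.39, Cox19 with 4.18 and Sco1 with 3.76. There the intervals of Coa5 and Cox15, of Cox19 and Sco1, and of Sco1 and Cox17 overlapped. The place of Cox17 depended on the length used: divided by the 444 bases of Cox17-201 it had 37.4 CPM per kilobase in 2D culture, the highest of the 9, and 2.16 in 3D culture, the lowest.

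The gap between those 2 lengths comes from the gene model. Cox17 has 6 annotated transcripts that together cover 5773 exon bases. Gm21987 (ENSMUSG00000095464, chr16:38347040-38362297), a predicted gene on the same strand, repeats the Cox17 coding exons and ends in a last exon of 199 bases beyond Cox17. It shares 257 bases (4.45%) with Cox17, and it had 0 counts in 3D culture and 0 in 2D culture. Adding its 0 counts to Cox17 cannot change the ratio of 0.0578, so it does not show whether reads on the shared bases went uncounted. No annotated gene copy named after a member was found.

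**Figure D3:**
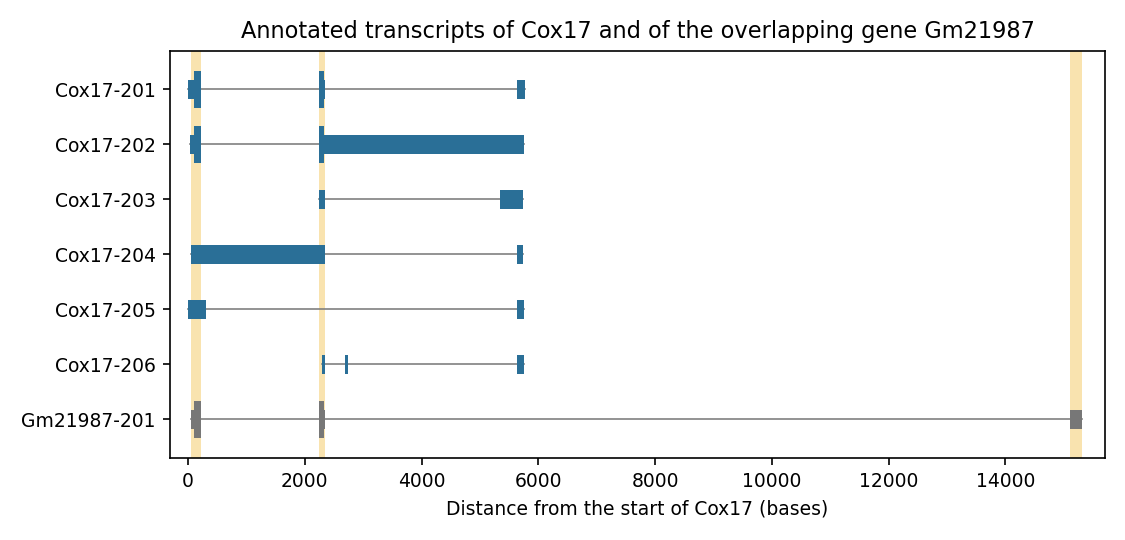
Annotated transcripts of Cox17 (blue) and Gm21987 (grey) by distance from the Cox17 start in bases; thick boxes are coding parts, thin boxes other exon bases, lines introns, and yellow bands span the exons of Gm21987. The first and second Gm21987 exons cover the whole coding part of Cox17, and the long exons of Cox17-202 and Cox17-204 span the introns of Cox17-201.

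What is left to Cox17 alone is mostly intron of its main transcript. Of its 5516 unshared exon bases, 187 belong to Cox17-201: the 49 bases before Gm21987 begins and the last exon of 138 bases. The other 5329 (96.6%) lie outside it, chiefly in the last exon of Cox17-202, which has 3504 bases and runs through the last intron, and in the retained-intron transcript Cox17-204, which has 2396 exon bases. In the other measured members such bases were 1513 of 3925 in Sco1, 1286 of 3747 in Cox19, 580 of 1616 in Surf1, 1357 of 5220 in Coa5, 199 of 735 in Cox11, 122 of 2988 in Cox10 and 111 of 4460 in Cox15, and Coa3 had none. Cox17 had the largest share of the 9.

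**Figure D4:**
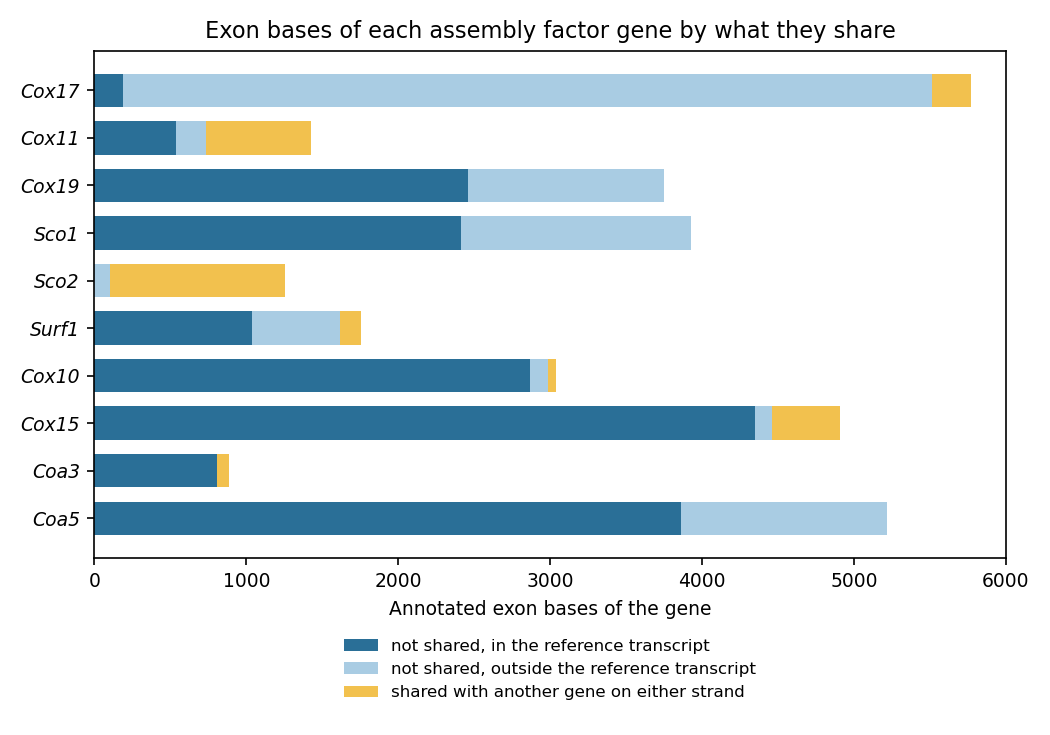
Annotated exon bases of each assembly factor gene, split into bases not shared with another gene and in the reference transcript (dark blue), not shared and outside it (light blue), and shared with another gene on either strand (yellow). Cox17 has 187 dark blue bases of 5773, and Sco2 has none of 1253.

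Whether the deposited counts hold reads from shared bases was read from genes with no base of their own. Of 720 genes whose every exon base is shared with a same-strand gene, 12 (1.67%) had a count in either library, and of the 107 protein-coding ones 1 did (0.935%). Of 440 genes wholly shared with opposite-strand genes only, 5 (1.14%) had a count. Of 40973 genes with no shared base, 13099 (32%) had one. Counts were thus rare where every base is shared on either strand, which is the case for the Cox17 coding part. A table of counts per gene does not show which bases gave the Cox17 counts, and whether any came from its coding part was not tested.

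The position of Cox17 among genes of the same layout was also described. Of 35 measured protein-coding genes whose coding part is wholly shared with a same-strand gene, 12 (34.3%, Cox17 among them) were 2-fold or more lower and 7 (20.0%) 2-fold or more higher, against 18.9% lower and 18.2% higher of 10104 genes with no coding base shared. The median log2 ratio of the 35 was 0.31. Several of the lower genes, such as Xndc1, Cox17 and Dpm1, were under 1 CPM in 3D culture and counted as measured through 2D culture. Phospho1, a higher gene, was under 1 CPM in 2D culture. Cox17 was also chosen by its ratio, so these shares are a description and do not test the layout. Cox17 was the second lowest of the 35, after Xndc1 with 3 counts in 3D culture and 74 in 2D culture, and before Dpm1 with 5 in 3D culture and 88 in 2D culture. A set of 53 measured protein-coding genes had at least 90% of their unshared bases outside the reference transcript. Of these, 15 (28.3%, Cox17 among them) were 2-fold or more lower. With less outside, the shares were 20.6% of 2339 genes under 10%, 17.3% from 10 to 50%, 20.0% from 50 to 80% and 27.5% from 80 to 90%. The median adjusted log2 ratio was 0.37 in the 53 and -0.064 in the 2339.

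Of the nuclear long noncoding RNAs, 2 were looked up. Neat1 had 60.7 CPM in 3D culture and 1376 CPM in 2D culture (22.7-fold lower), and Malat1 had 60.6 CPM in 3D culture and 970 CPM in 2D culture (16-fold lower). Both transcripts stay in the nucleus. Other nuclear RNAs were not examined here, and the part of retained introns, of nuclear RNA and of shared bases in the Cox17 ratio was not tested. The 5 measured protein-coding genes of like abundance with the nearest log2 ratio, among 2120 candidates over these 2 libraries, were Vasn (-4.15), Spaca6 (-3.98), Zfp760 (-4.27), Olfr111 (-4.35) and Col27a1 (-3.87), beside -4.11 for Cox17.

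Many of the members start close to a neighbour on the other strand, a layout that their choice did not use. Of the 9 measured members, 6 (66.7%) start within 1000 bases of the start of a protein-coding gene on the opposite strand that runs the other way, against 18% of 10538 measured protein-coding genes. Cox17 and Cox19 have no such neighbour, and that of Cox10 is noncoding. The pairs were Cox11 with Stxbp4 (89 bases between starts), Sco1 with Adprm (76), Surf1 with Surf2 (163), Cox15 with Cutc (4), Coa3 with Cntd1 (102) and Coa5 with Unc50 (36). Under TMM, the measured partners of members with ratios above 1 were themselves at or below 1, while after adjustment Stxbp4 turned to a log2 ratio of 0.29. Surf2 had 152 counts in 3D culture and 202 in 2D culture, a ratio of 0.983 (0.792 to 1.22) beside 2.10 for Surf1. Stxbp4 had 120 counts in 3D culture and 288 in 2D culture, a ratio of 0.545 (0.436 to 0.676) beside 1.31 for Cox11. Cntd1 had 0 counts in 3D culture and 2 in 2D culture, too few for a ratio.

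Other than Cox17, the 3 members with TMM ratios below 1 had partners that were also below 1 under TMM, while after adjustment Adprm turned to a log2 ratio of 0.53. Adprm had 225 counts in 3D culture and 295 in 2D culture, a ratio of 0.997 (0.834 to 1.19) beside 0.801 for Sco1. Cutc, named for copper homeostasis, had 96 counts in 3D culture and 163 in 2D culture, a ratio of 0.770 (0.592 to 0.997) beside 0.946 for Cox15. Unc50 had 304 counts in 3D culture and 525 in 2D culture, a ratio of 0.757 (0.655 to 0.873) beside 0.825 for Coa5.

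Overlapping and antisense genes may bear on what the counts of the members hold, which was not tested. Cox11 shares 688 of its 1423 exon bases (48.3%) with Tom1l1 on the opposite strand, which had 771 counts in 3D culture and 1067 in 2D culture. Cox15 overlaps Entpd7, with 356 counts in 3D culture and 461 in 2D culture. The antisense gene 9630013K17Rik inside Cox10 had 3 counts in 3D culture and 35 in 2D culture, and the antisense gene 2810001G20Rik, which starts 16 bases from Cox10, had 9 in 3D culture and 39 in 2D culture. Gm12289, also within Cox10, had 0 in each. These antisense counts are small beside those of Cox10, 589 in 3D culture and 508 in 2D culture.

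The upstream windows of 9 members, Sco2 among them and Cox17 not (250 bases before to 50 after the start, RefSeq, GRCm38.p6) were searched on both strands. The ETS core CCGGAAG, or CTTCCGG on the other strand, was in the windows of 4 (Surf1, Cox10, Sco1 and Cox15), against 8.86% of 32851 windows of the same length. The NRF1 letters GCGCATGCG were in none of these windows and in 1.75% of all windows, and the YY1 letters AAGATGGCG were in that of Cox10 and in 1.40% of all windows. In the Cox10 window the ETS and YY1 matches do not overlap. The 4 members with the ETS core had ratios from 0.801 to 2.10, the whole range of the 8 measured members other than Cox17.

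The rest of the pathway was described under TMM, and total counts would move each log2 ratio below by the same -0.60. Of all measured genes, 18.7% were 2-fold or more higher and 20.8% lower under TMM, and 10.5% and 9.75% after adjustment. With so few genes in each list, the counts below are not set apart from those shares. Of 18 other measured complex IV assembly factors, 4 were 2-fold or more higher in 3D culture and 1 lower, with a median log2 ratio of 0.39. After adjustment for GC content, exon length and expression their median was 0.40, against -0.030 for the members. Then 1 was higher (Dnajc30) and 2 lower (Mss51 and Cox14, the latter at a log2 ratio of -1.01). The higher ones under TMM were Oxa1l, the inner-membrane insertase (ratio 2.47), Higd1a (2.55), Higd2a (2.72) and Dnajc30 (2.77). Mss51 was lower, with 4 counts in 3D culture and 54 in 2D culture. Slirp, Cox20 and Pet117 (named after their values were seen) had at most 3 counts in each library. Of their exon bases, 97.8%, 91.1% and 100% are shared with other genes, much as for Sco2. Fdx1l (72.7% shared) had 0 counts in 3D culture and 2 in 2D culture. Pet100 (52.6%) had 109 in 3D culture and 89 in 2D culture, and Cox16 (56.8%), which was under 1 CPM, had 12 and 9. Genes with no shared base can also lack counts: the nuclear-encoded subunit genes Cox8b and Cox6b2 had 0 in each library. These genes too were named after their values were seen, and the part of sharing in their counts was not tested.

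The copper- and heme-carrying subunits that the members serve are encoded in mitochondrial DNA. The gene mt-Co1, which receives heme A and copper, had 147650 counts in 3D culture and 224601 in 2D culture, a TMM ratio of 0.859. For mt-Co2, which receives copper, there were 632 counts in 3D culture and 1026 in 2D culture, a ratio of 0.805. For mt-Co3, which binds neither, there were 601 in 3D culture and 551 in 2D culture, a ratio of 1.43. Both genes had far fewer counts than mt-Co1. Why was not tested, so their counts may not stand for their transcript levels. None of these 3 passed 2-fold, and their median log2 ratio was -0.22 under TMM and 0.12 after adjustment. The adjusted log2 ratio was -0.92 for mt-Co1, 0.12 for mt-Co2 and 1.05 for mt-Co3, which was then past 2-fold.

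Of 14 measured nuclear-encoded subunits, 4 were 2-fold or more higher in 3D culture and none lower, against 18.7% and 20.8% of all measured genes. The median log2 ratio was 0.75, and the higher ones were Cox5a (ratio 2.42), Cox4i1 (2.94), Cox6a1 (3.18) and Cox5b (3.27). Cox6c was at 0.509. After adjustment for GC content, exon length and expression the median of the 14 was -0.30, below the fitted value. Then 1 was higher (Cox5a) and 1 lower (Cox8a, log2 ratio -1.06). Cox4i1 then had a log2 ratio of -0.073 and Cox6a1 of -0.43. Cytochrome c, the electron donor, was at 0.709 (Cycs), and Hccs, which attaches its heme, was 3.05-fold lower with 340 counts in 3D culture and 1356 in 2D culture. After adjustment the log2 ratio was 0.081 for Cycs, which changed its sign, and -0.55 for Hccs, which was then not past 2-fold.

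Copper reaches COX17 by way of uptake and storage proteins. Of 14 measured copper-handling genes, 6 were 2-fold or more higher and 3 lower, against 18.7% and 20.8% of all measured genes. Their median log2 ratio was 0.79. After adjustment 2 were higher (Commd1 and Sod1) and 1 lower (Slc31a2), with a median of 0.28. Slc31a1, the plasma-membrane copper importer, was at 0.885, and Slc25a3, which carries copper and phosphate into the mitochondrial matrix, was at 2.05. The 3 highest by interval bound were the metallothionein Mt1 (4.24), the copper and zinc superoxide dismutase Sod1 (2.93) and Cuta (2.63). Steap3, a metalloreductase (2.16), and the cytosolic chaperone Atox1 (2.31) were also higher, and Ccs, the copper chaperone of SOD1, was at 1.76. Lower were Xiap (0.415), the transporter Slc31a2 (0.425) and Atp7a, a copper-exporting ATPase (0.478). Adjustment changed the sign for Atox1 (adjusted log2 ratio -0.40), Ccs (-0.12), Xiap (0.18) and Slc31a1 (0.13).

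Heme B, the substrate of COX10, is made by enzymes of which 11 were measured with their transporters. Of these, 3 were 2-fold or more higher and none lower, against 18.7% and 20.8% of all measured genes. Their median log2 ratio was 0.75. After adjustment 1 was higher (Fech) and none lower, with a median of 0.30. The higher ones under TMM were Alas1, the first enzyme (ratio 2.55), Urod (2.63) and Alad (3.05). Their adjusted log2 ratios were 0.85, 0.55 and 0.46, not past 2-fold. Fech, which inserts the iron, was at 1.68 under TMM and at a log2 ratio of 1.37 after adjustment.

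COX17 and COX19 enter mitochondria through the CHCHD4 relay, which oxidises their cysteines. Chchd4 was at 1.15, and Gfer, the oxidase that recharges it, was at 2.39. Of 22 measured genes for twin cysteine-motif proteins and their import, 6 were 2-fold or more higher and 3 lower. The shares over all measured genes were 18.7% and 20.8%. The median log2 ratio of the 22 was 0.52. After adjustment 2 were higher (Chchd7 and Chchd10) and 1 lower (Cmc4), with a median of 0.038. The highest by interval bound were Chchd10 (3.81), Timm13 (2.88) and Chchd6 (2.81). Cmc4, with 4 counts in 3D culture and 36 in 2D culture, Timm9 (0.375) and Timm10b (0.479) were lower under TMM, and Timm10b had a log2 ratio of 0.0053 after adjustment.

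Assembly factors of the other complexes were described in the same way, beside 18.7% higher and 20.8% lower of all measured genes. Of 17 measured for complex I, 2 were 2-fold or more higher (Ecsit, 2.23, and Dmac2, 2.26) and 3 lower (Ndufaf4, 0.377, Tmem126b, 0.420, and Tmem186, 0.481), with a median log2 ratio of 0.15. After adjustment 1 of the 17 was higher (Nubpl, log2 ratio 1.52, TMM ratio 1.39) and none lower, with a median of 0.16. The adjusted log2 ratio of Tmem126b was 0.16. Of 13 for complexes II, III and V, 3 were higher (Bcs1l, 2.01, Fmc1, 2.81, and Uqcc2, 3.08) and 2 lower (Lyrm7, 0.451, and Tmem70, 0.494), with a median of 0.17. After adjustment 1 of the 13 was higher (Sdhaf3, log2 ratio 1.34, TMM ratio 0.789) and none lower, with a median of 0.56. The adjusted log2 ratio of Lyrm7 was 0.33. With 1 library per culture method these medians are descriptions, and no list is set apart from another.

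**Figure D5:**
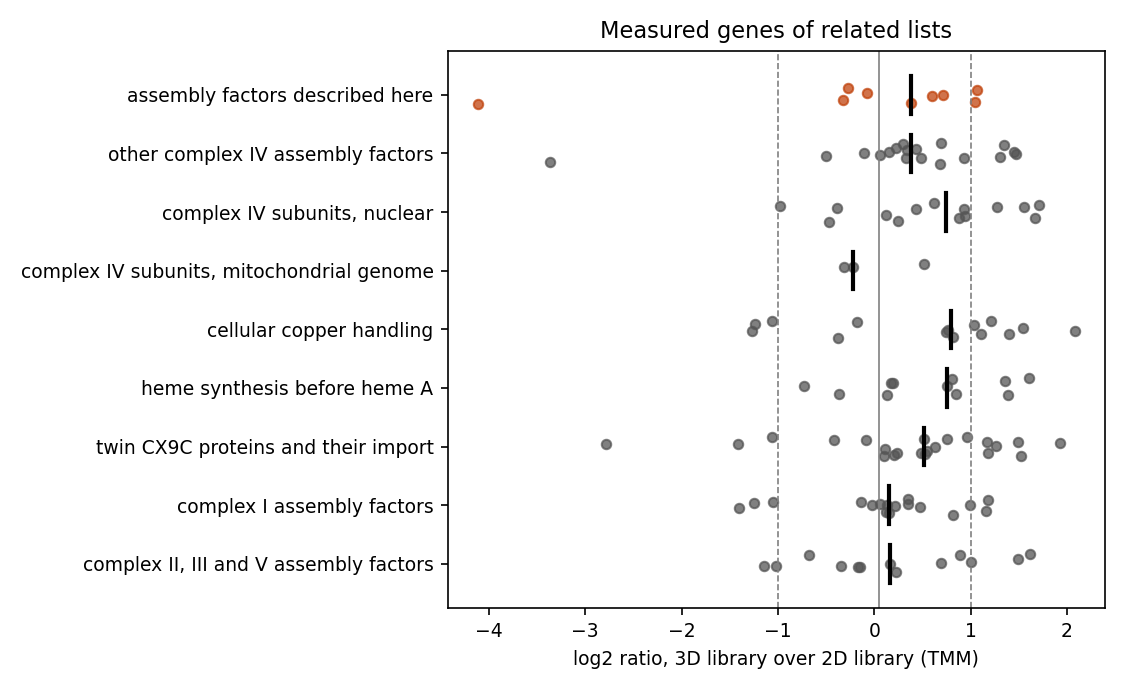
Log2 ratio of the 3D over the 2D library for each measured gene (points) of the assembly factors and of 8 related lists under TMM scaling, with the median of each list as a bar; the solid line is the all-gene median and dashed lines mark 2-fold. The median of the assembly factors is 0.39, that of nuclear-encoded complex IV subunits 0.75, and Cox17 is the lowest point of all at -4.11.

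The identity of the cells was read from markers. All 10 macrophage markers were measured, at a summed level of 9495 CPM in 3D culture and 3279 CPM in 2D culture. Markers of hepatocytes summed to 313 counts in 3D culture and 21 in 2D culture, with 2 of 8 measured and Tat at 0. Fibroblast markers summed to 17 counts in 3D culture and 20 in 2D culture (Col3a1 and Lum at 0), and epithelial markers to 12 in 3D culture and 5 in 2D culture. Endothelial markers summed to 40 in 3D culture and 35 in 2D culture, and muscle markers to 3 in 3D culture and 5 in 2D culture (Acta1 and Myh6 at 0). All 4 T and B cell markers were at 0. The part of the hepatocyte transcripts in the ratios of the members was not tested.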

How the data were processed

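The authors deposited counts of reads per Ensembl gene for 1 library per culture method, made with Trimmomatic, HISAT2 and HTSeq on mm10, per the submitters' processing notes. Total RNA was taken with TRIzol and libraries made with a TruSeq stranded mRNA kit, per the labels' protocols. Tool versions, the annotation release, the strand option and the handling of reads on overlapping genes: none is given in the sources used here. Totals were 16652503 (3D) and 14371084 (2D).

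Identifiers were matched to GENCODE M21 of mm10 (52403 of 52550, 99.7%), which gave symbols, exons and shared bases; 147 did not match. Counts were scaled with TMM (edgeR 4.0.16, R 4.3.3), with factors of 0.813 (3D) and 1.23 (2D). A gene was measured at a mean of at least 1 CPM. The value was the 3D over 2D ratio with an exact 95% counting interval (scipy 1.17.1), and at least 2-fold was the size rule. A ratio was not formed where both libraries had at most 3 counts. Elsewhere a count of 0 was set to 3 before the ratio was formed. The adjustment for mean expression, exon length and GC content used natural cubic splines with 4 degrees of freedom (patsy 1.0.2) over all measured genes. Its values are residuals from that fit, with GC content taken from the longest transcript and length from all exon bases. The calculation was tested on simulated data. No p-value is given, since each culture method has 1 library.

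The members and lists were chosen with earlier results of these data known. Genes named are the members, genes that overlap them or start within 1000 bases on the other strand, of each list those at least 2-fold different (above 6, the 3 in each direction with the farthest interval bound) or with a role beside a member, and the 5 genes nearest to Cox17. Neat1, Malat1, Xndc1, Dpm1, Phospho1, Slirp, Cox20, Pet117, Fdx1l, Pet100, Cox16, Cox8b and Cox6b2 were named outside this rule, after their values were seen. So were genes named only for passing 2-fold after adjustment. Alternatives were DESeq2 1.42.0 size factors, total counts, upper-quartile and reference-gene scaling, other filters, a pseudocount of 1 CPM, thinning to 0.5 of the smaller total, the adjustment, protein-coding genes only, other size rules, Cox17 with Gm21987 added and, chosen after seeing the data, the members without Cox17.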

Additional observations from a re-analysis of the deposited data

How the results depend on the processing

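Of the alternatives tried, none turned the direction of the Cox17 ratio (0.0578). It was 0.111 with a pseudocount of 1 CPM and 0.105 after adjustment for GC content, exon length and expression. The alternative with Gm21987 added could not change that ratio, since Gm21987 had 0 counts in each library. The median log2 ratio of the measured members (0.39) turned to -0.21 under total counts, -0.17 under reference-gene scaling and -0.030 after that adjustment, and the ratio of Coa3 turned to 0.979 after it. Members at least 2-fold higher (2) numbered 0 under total counts, reference-gene scaling, thinning, that adjustment, a 4-fold rule and the interval bound. They numbered 1 with protein-coding genes only and 4 at 1.5-fold. The size rules are stricter or looser by construction. Total counts, reference genes and protein-coding genes only shift all log2 ratios alike, and Surf1 (2.10) and Coa3 (2.06) lay close to 2 under TMM. For thinning and the adjustment the cause was not tested. The count of members at least 2-fold lower (1) was 0 without Cox17, an alternative chosen after seeing the data. For the other 8 measured members, Cox11 fell below 1 under total counts (0.863) and reference-gene scaling (0.887), Cox10 after adjustment (0.926), and Sco1 was above 1 after adjustment (1.66). No paired analysis was possible because each culture method has 1 library, and for the same reason no library could be left out. Depth limits Cox17, whose 13 counts in the 3D library set its interval.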
